A study of Ictidomys tridecemlineatus with 15 samples.

Results

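Hamp, Tfr2, Tfrc, Tf, Fth1, Alas1, Hmox1, Hpx, Cp and Ireb2 encode proteins that sense, carry, store and regulate iron or that make and scavenge heme. Their transcription units were taken from the count matrix wherever a name in the unit, split at its colons, equalled 1 of these 10 symbols with case ignored. Of the 10 genes, 9 were found, in 10 of the 6324 units. Fth1, Ireb2, Tfrc, Tf, Cp and Alas1 had 6 units of their own. The other 4 units were merged from overlapping genes: Hamp lay in a unit with Lsr and Usf2, Tfr2 with Actl6b and G40696, Hpx with Trim3 and Apbb1, and a further unit joined the transferrin name to Srprb. Reads of a merged unit cannot be assigned to 1 of its genes. Hmox1 matched no unit and was not analysed here.

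Global run-on sequencing (GRO-seq), which labels RNA that engaged polymerases are extending, was performed on nuclei isolated from livers of 13-lined ground squirrels. The run-on lasted 7 min at 30 °C for nuclei of every state, so that the reads count engaged polymerases and not synthesis at the temperature of the animal. The animals were all female, were housed in the laboratory and came from a breeding colony; their ages were not given in the sources used here. Summer active animals (SA, n = 3) were homeothermic and fed, whereas the other animals were fasting in the cold and dark of the hibernaculum: interbout aroused (IBA, n = 3), entering torpor with falling body temperature (Ent, n = 3), early in a torpor bout (ET, n = 3) and late in one (LT, n = 2; LT replicate 2 was not analysed here). Each library came from 1 animal. Total counts ran from 3713883 in SA replicate 2 to 8884763 in SA replicate 3. The ET animals were collected in a hibernation season of their own, the IBA animals in another and the LT animals in a further one, so that for ET, and in the comparison of IBA with LT, state and season cannot be told apart by the groups alone; SA and Ent each held animals of the seasons of IBA and LT.

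The liver sets the iron level of the body. Hepatocytes secrete hepcidin, the product of Hamp, which makes cells degrade the iron exporter ferroportin, and they secrete transferrin, which carries iron in plasma, and hemopexin and ceruloplasmin, which bind heme and oxidize iron. Inside cells, ferritin stores iron, iron regulatory proteins bind messenger RNAs of iron genes when iron is scarce, and heme synthesis starts with an aminolevulinate synthase.

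Levels are given as CPM, the count scaled to library sizes that were themselves adjusted by trimmed mean of M-values (TMM). A level is thus a share of its library, and higher or lower means relative to the other units. The study states that library-size normalization hides differences in total transcription between states. A unit with a higher share in torpor may therefore not hold more engaged polymerases per nucleus, and this was not tested. A unit was called at an adjusted p of 0.001 or less in the edgeR quasi-likelihood test, with Benjamini-Hochberg adjustment across the 6324 units. Among the 5 states 3 of the 6 members with a unit of their own were called, namely Tf, Alas1 and Ireb2, against 25.5% of all units; so were 2 of the 4 merged units, those holding Hamp and Srprb. These 5 calls among the states held when each library was left out in turn. At an adjusted p of 0.05 the counts were 5 of 6 and 4 of 4, against 62% of all units. The edgeR adjusted p among the 5 states was 4.4e-06 for Alas1, 3e-05 for Tf, 3.3e-05 for TF:Srprb, 0.00018 for the unit of Hamp and 0.00021 for Ireb2. Tf, TF:Srprb, Alas1 and the unit of Hamp were lower in LT than in IBA, and Ireb2 was higher in LT than in SA. Season was added as a covariate to a fit without the 3 ET libraries, since ET has a season of its own, and, after seeing the data, to a fit of all 14 libraries, in which the ET coefficient holds that season. From IBA to LT these fits called 3.15 and 5.74% of all units, against 17.4% with no season term, and from SA to LT 6.02 and 10.1%, against 15.7%. A fit without ET and without season, also added after seeing the data, called 15.2 and 13.4% of all units in these pairs.

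**Figure D1:**
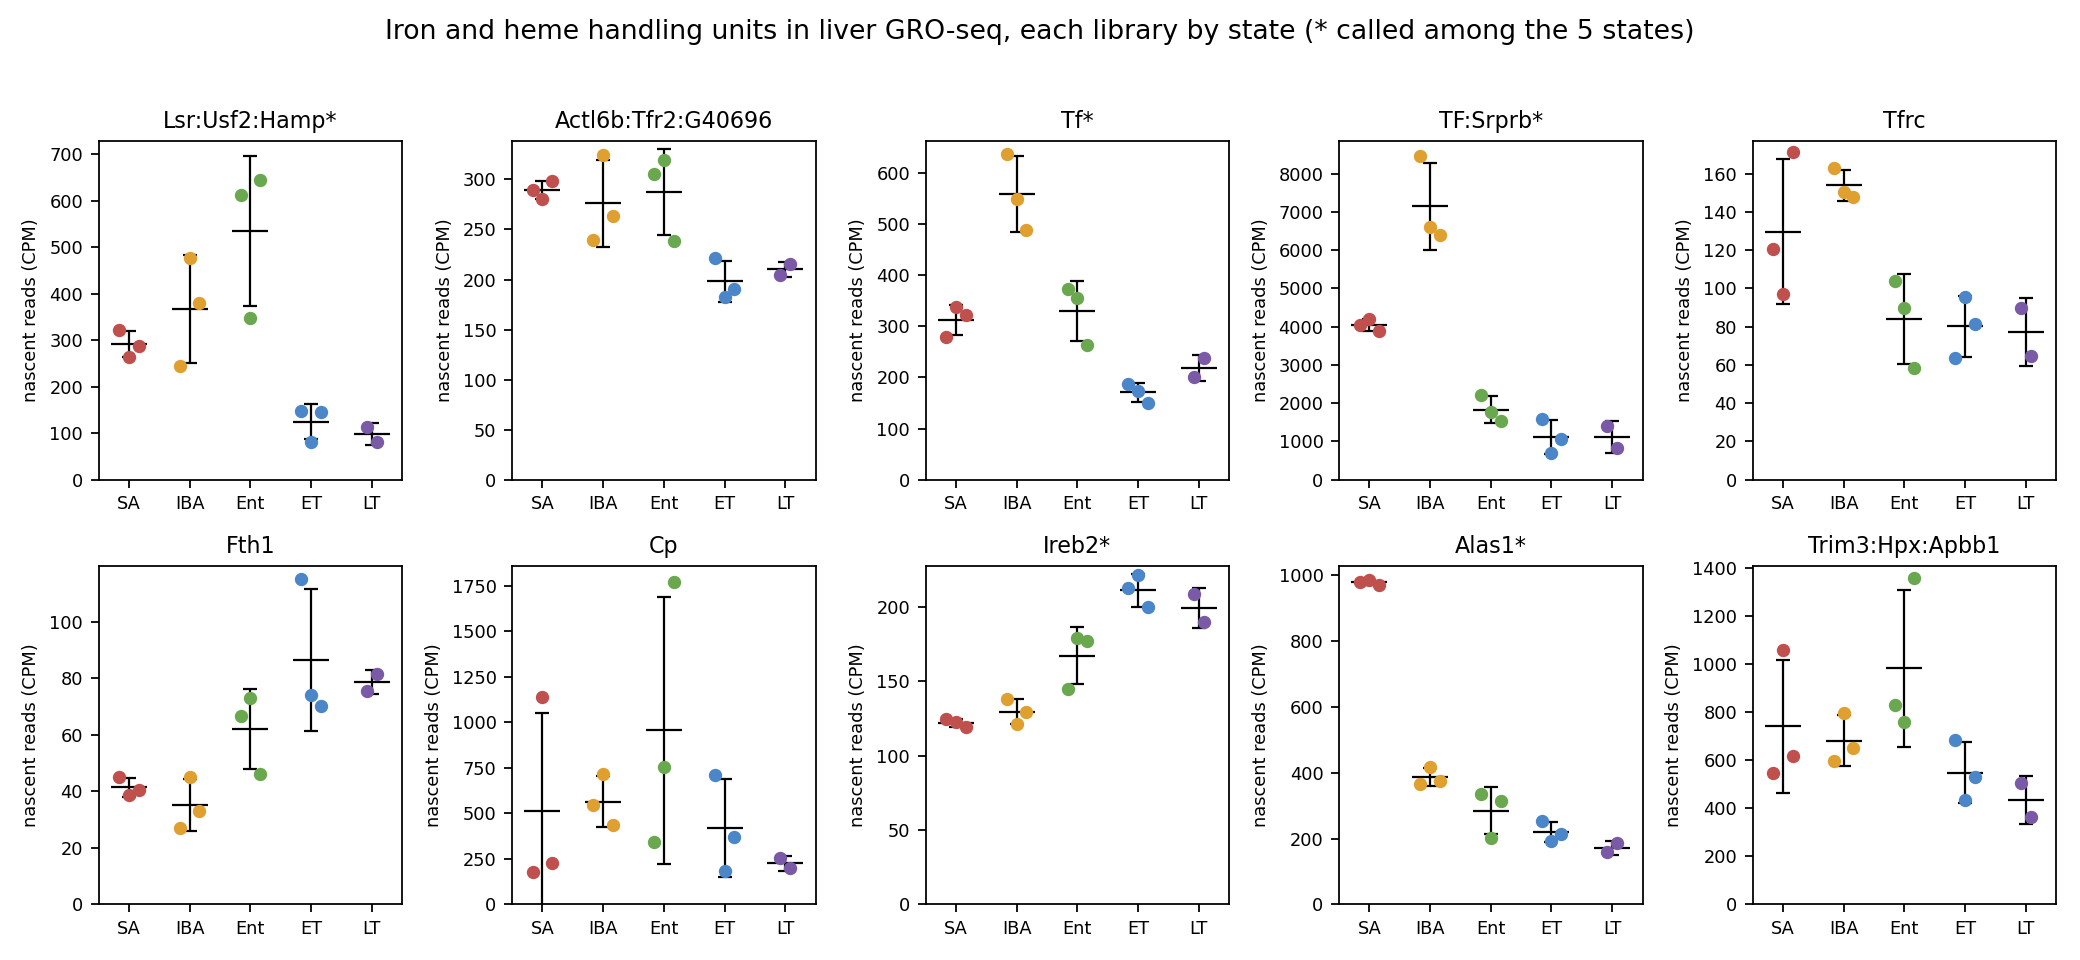
Nascent reads (CPM, linear axis from 0) of the 10 units in each library of the 5 states; each point is 1 library, the horizontal bar is the mean and the whisker the SD (n = 3, and 2 in LT), and the lower whisker of Cp in SA is truncated at 0. The 3 SA libraries of Alas1 lie above all others, and the Cp points of SA and Ent spread widely.

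Hamp encodes hepcidin, the hormone that limits iron release into plasma. The merged unit of Lsr, Usf2 and Hamp spans Itri16 from 10608158 to 10639384 on the plus strand (HiC_Itri_2 genome) and stood at 322, 265 and 288 CPM in SA, 244, 477 and 380.3 in IBA, 612, 349 and 644 in Ent, 147, 81.3 and 146 in ET and 114 and 80.6 in LT. The ET and LT libraries all lay below every library of the other 3 states, while IBA overlapped both SA and Ent, which did not overlap each other. The unit fell from Ent to ET (log2 fold change -2.10, SE 0.31, edgeR adjusted p = 0.00082) and was lower in LT than in IBA (log2 fold change -1.92, SE 0.36, edgeR adjusted p = 0.00083). The mean order was Ent, IBA, SA, ET and LT, in which the neighbours Ent and IBA, IBA and SA, and ET and LT were not told apart by the test, and SA was not tested against ET. Lsr encodes a lipoprotein receptor and Usf2 a transcription factor, so that the part of the change that belongs to hepcidin cannot be read from these counts. The Ent to ET call was lost when any of 12 of the 14 libraries was left out, all but SA replicate 2 and IBA replicate 1, with the log2 fold change between -2.31 and -1.87 and an edgeR adjusted p of at most 0.0043; without Ent replicate 1 or ET replicate 2 no unit of the 6324 was called in that pair. The IBA to LT call was lost on leaving out 1 of any of 11 libraries, all but IBA replicate 1, Ent replicate 2 and ET replicate 2 (log2 fold change -2.19 to -1.68, edgeR adjusted p at most 0.016), without ET (-1.89, edgeR adjusted p = 0.0012), without ET and with season as a covariate (-1.77, edgeR adjusted p = 0.014; with ET kept -1.81, edgeR adjusted p = 0.012), and with only IBA and LT fitted (-1.88, edgeR adjusted p = 0.0023). In bulk liver, fewer nuclei of a cell type and fewer engaged polymerases per nucleus cannot be told apart.

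Tfr2 encodes transferrin receptor 2, a hepatocyte sensor of iron-loaded transferrin. Its merged unit, with Actl6b and G40696, lies on Itri9 from 133340736 to 133379275 and held 289.7, 281 and 299 CPM in SA, 239.6, 325 and 264 in IBA, 305, 319 and 239 in Ent, 221, 182 and 191 in ET and 205 and 216 in LT. All 5 libraries of ET and LT lay below the other 9, but the gap was narrow and the unit was not called among the 5 states (edgeR adjusted p = 0.013). Gigyf1, which ends 13.4 kb upstream on the same strand, had mean levels of 36.8 ± 5.26 CPM in IBA and 43.9 ± 1.02 in LT (SD) and was not called in any pair. Of all units, 11.4% had such a neighbour within 20 kb. Among the other units of the listed genes only TF:Srprb had one, the unit Tf. Whether reads ran on into either unit was not tested.

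Transferrin, the iron carrier of plasma, was represented by 2 units on the plus strand of Itri7. The unit named Tf runs from 70096133 to 70138601 and that named TF:Srprb from 70157853 to 70207134, 19.3 kb further on. Srprb encodes a subunit of the signal recognition particle receptor. In the RefSeq table (assembly mIctTri1.hap1) no gene has the symbol Tf, and which unit is the serum transferrin gene was not settled here; reads that fit near-identical copies equally well would be missing from counts of uniquely aligned reads. Tf held 279, 337 and 321 CPM in SA, 637, 549.9 and 489 in IBA, 372, 355 and 264 in Ent, 188, 174 and 150.0 in ET and 201 and 237 in LT. The IBA libraries were the highest and did not overlap those of any other state, and the ET libraries lay below all others. TF:Srprb held 4048, 4202 and 3897 CPM in SA, 8455, 6612 and 6386 in IBA, 2202, 1768 and 1531 in Ent, 1591, 696 and 1073 in ET and 1408 and 817 in LT. Here too the IBA libraries lay above all others, followed by SA without overlap; Ent overlapped ET, and ET overlapped LT.

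Tf was lower in LT than in IBA (log2 fold change -1.35, SE 0.19, edgeR adjusted p = 0.00012, n = 3 and 2), and so was TF:Srprb (log2 fold change -2.68, SE 0.36, edgeR adjusted p = 1e-04). TF:Srprb was also lower in LT than in SA (log2 fold change -1.86, SE 0.35, edgeR adjusted p = 0.00093). Neither unit was called by edgeR from SA to IBA, where the log2 fold change of Tf was 0.84 (edgeR adjusted p = 0.0098), nor from IBA to Ent, where it was -0.76 for Tf (edgeR adjusted p = 0.0095) and -1.96 for TF:Srprb (edgeR adjusted p = 0.0032). DESeq2 called Tf from SA to IBA (DESeq2 adjusted p = 4.5e-05). From IBA to Ent it called Tf (DESeq2 adjusted p = 0.00018) and TF:Srprb (DESeq2 adjusted p = 3.5e-09). From Ent to ET, where its libraries did not overlap, Tf came closest to the edgeR threshold among these steps (log2 fold change -0.95, SE 0.16, edgeR adjusted p = 0.0015) and was also called by DESeq2 (adjusted p = 7.6e-07). In that step TF:Srprb was at -0.71 (edgeR adjusted p = 0.084). Per length, the level of TF:Srprb was 145 ± 23.0 RPKM in IBA and 22.6 ± 8.48 in LT (SD), and that of Tf was 13.2 ± 1.76 and 5.15 ± 0.606. The Tf call from IBA to LT was lost without LT replicate 1 or LT replicate 3 (edgeR adjusted p at most 0.0035), and that of TF:Srprb without LT replicate 3 (edgeR adjusted p = 0.0024). The SA to LT call of TF:Srprb was lost on leaving out any single library other than ET replicate 1 or ET replicate 2 (log2 fold change -2.31 to -1.52, edgeR adjusted p at most 0.017), and without ET and with season as a covariate (-1.95, edgeR adjusted p = 0.002; with ET kept -1.99, edgeR adjusted p = 0.0026), but not without ET alone (-1.83, edgeR adjusted p = 0.00061). Without ET and with season as a covariate, the IBA to LT log2 fold change was -1.42 for Tf (edgeR adjusted p = 0.0036) and -2.83 for TF:Srprb (edgeR adjusted p = 0.0012), neither of them called, and with ET kept it was -1.47 (edgeR adjusted p = 0.0016) and -2.87 (edgeR adjusted p = 0.0012), again not called. Both were called without ET and with no season term (edgeR adjusted p = 0.00033 and 1e-04).

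**Figure D2:**
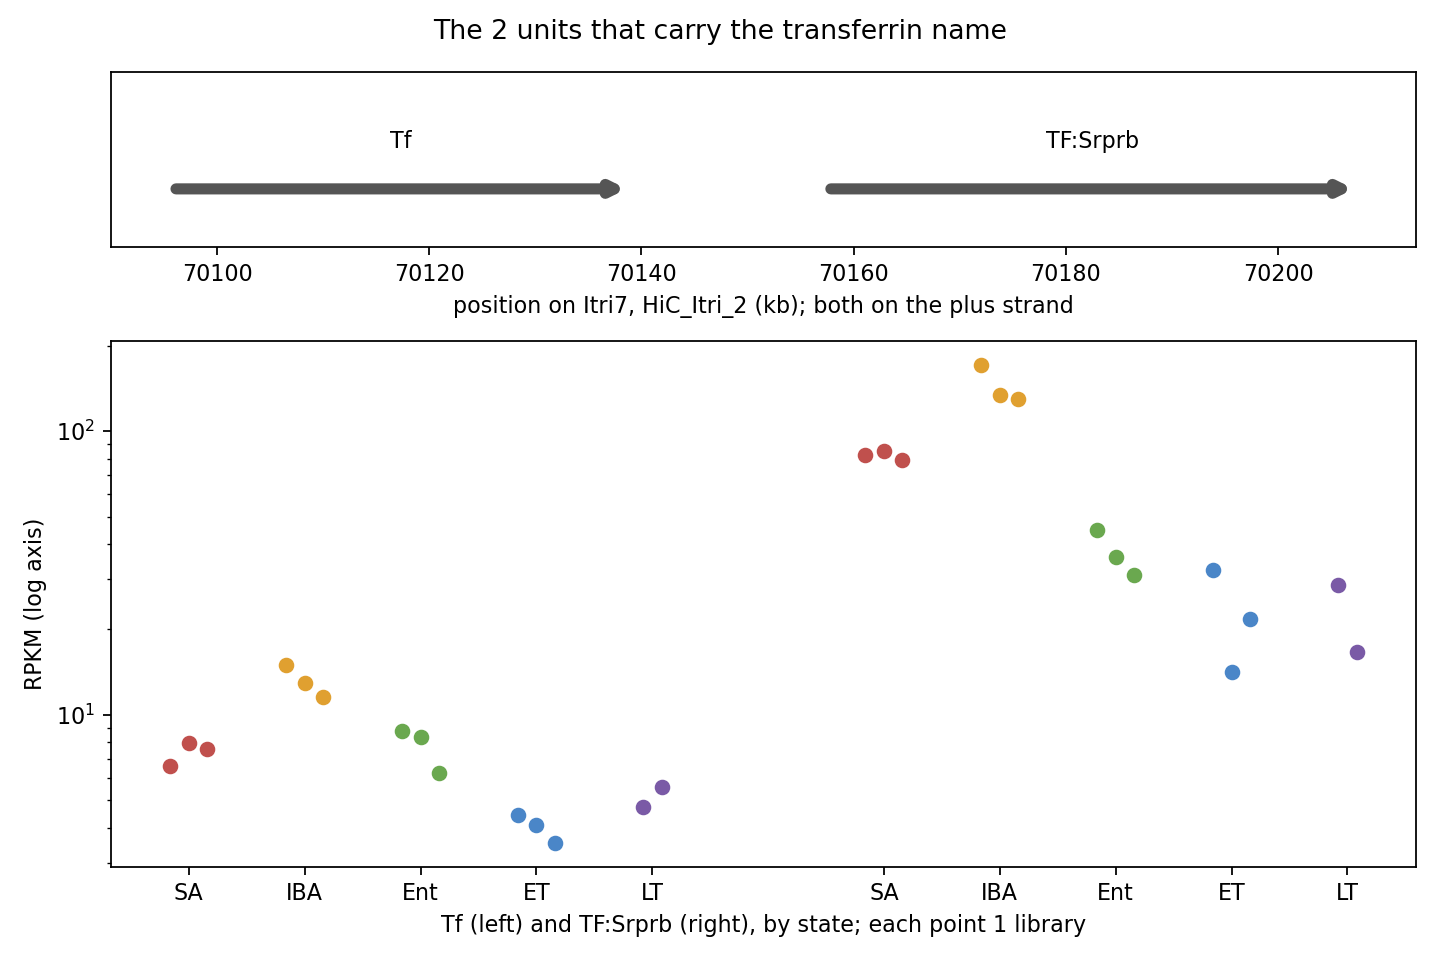
Top, the Tf and TF:Srprb units to scale on Itri7 (kb, HiC_Itri_2 genome, plus strand); bottom, RPKM of each library by state on a log axis, each point 1 library. TF:Srprb lies above Tf in every state, and both are highest in IBA, where their means are 145 and 13.2 RPKM.

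Tfrc encodes transferrin receptor 1, which takes iron-loaded transferrin into cells. It held 121, 97.1 and 171 CPM in SA, 163, 150.3 and 148 in IBA, 104, 89.9 and 58.3 in Ent, 63.6, 95.3 and 81.4 in ET and 89.6 and 64.8 in LT. The IBA libraries exceeded those of Ent, ET and LT without overlap, and the SA libraries spanned much of the range. Tfrc was not called by edgeR among the 5 states (edgeR adjusted p = 0.0096), where DESeq2 called it (DESeq2 adjusted p = 0.00043). Its log2 fold change from IBA to LT was -0.99 (SE 0.28, edgeR adjusted p = 0.012). Fth1, the heavy chain of the iron store ferritin, ran the other way, with 45.1, 38.8 and 40.4 CPM in SA, 27.0, 45.1 and 33.2 in IBA, 66.5, 73.2 and 46.1 in Ent, 115, 74.0 and 70.1 in ET and 75.6 and 81.6 in LT. Its ET and LT libraries lay above those of SA and IBA without overlap, and Ent spanned the gap. Fth1 missed the threshold among the 5 states (edgeR adjusted p = 0.0018). There it was called by DESeq2 (DESeq2 adjusted p = 6e-07) and by edgeR with scaling to uniquely mapped reads (edgeR adjusted p = 0.00021). It also missed the threshold from IBA to LT (log2 fold change 1.16, SE 0.26, edgeR adjusted p = 0.0029), where DESeq2 called it (adjusted p = 0.00015). Without ET and with season as a covariate that log2 fold change was smaller (0.80, edgeR adjusted p = 0.063; with ET kept 0.76, edgeR adjusted p = 0.11).

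Cp encodes ceruloplasmin, a copper-containing ferroxidase that hepatocytes secrete. Its libraries held 178, 1137 and 225 CPM in SA, 547, 714 and 434 in IBA, 345, 754 and 1768 in Ent, 711, 183 and 369 in ET and 252 and 197 in LT. SA replicate 2 and Ent replicate 3 stood far above the other libraries of their states, and both LT libraries lay below those of IBA and Ent while all other pairs of states overlapped. Cp was not called among the 5 states (edgeR adjusted p = 0.24; 0.028 without SA replicate 2 and 0.55 without Ent replicate 3).

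Ireb2 encodes iron regulatory protein 2, which binds iron-responsive elements of messenger RNAs. On the minus strand of Itri5 from 118696641 to 118752890, it held 125, 123 and 119 CPM in SA, 138, 121 and 129.6 in IBA, 145, 179 and 177 in Ent, 213, 222 and 199.7 in ET and 209 and 190.0 in LT. The SA libraries overlapped those of IBA, Ent lay above both, and ET and LT, which overlapped, lay above Ent. Ireb2 was higher in LT than in SA (log2 fold change 0.71, SE 0.12, edgeR adjusted p = 0.00063), a 1.63-fold difference. Between IBA and LT its log2 fold change was 0.62 (edgeR adjusted p = 0.0013), short of the threshold, and no sequential pair was called. That difference passed with DESeq2 (DESeq2 adjusted p = 2.9e-06) and with single-gene units only (edgeR adjusted p = 0.00078). It also passed without Ent replicate 1 and with scaling to uniquely mapped reads (edgeR adjusted p = 3e-04). With season as a covariate it did not, without ET (edgeR adjusted p = 0.014) or with ET kept (edgeR adjusted p = 0.013). The SA to LT call was lost on leaving out any single SA, IBA or LT library or ET replicate 3 (log2 fold change 0.64 to 0.77, edgeR adjusted p at most 0.011), without ET (0.74, edgeR adjusted p = 0.0011), and without ET and with season as a covariate (0.78, edgeR adjusted p = 0.004; with ET kept 0.74, edgeR adjusted p = 0.0028).

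Alas1 encodes the aminolevulinate synthase that starts heme synthesis in liver and limits its rate. Its unit has 2 pieces, at 66735908 to 66738402 and 66758428 to 66778089 of Itri7, plus strand, and held 978, 986 and 971 CPM in SA, 366, 419 and 375 in IBA, 336, 203 and 314 in Ent, 253, 193 and 214 in ET and 158 and 188 in LT. The SA libraries lay within 971 to 986 CPM, above every library of the 4 hibernation states. IBA lay above Ent without overlap, Ent and ET overlapped, and both LT libraries lay below ET. Alas1 was lower in LT than in SA (log2 fold change -2.50, SE 0.22, edgeR adjusted p = 1.4e-05), a 5.66-fold difference that was still called when each of the 14 libraries was left out in turn, without ET, and without ET with season as a covariate (-2.39, edgeR adjusted p = 0.00029; with ET kept -2.43, edgeR adjusted p = 6.8e-05). It was also lower in LT than in IBA (log2 fold change -1.16, SE 0.20, edgeR adjusted p = 6e-04), a call lost on leaving out any single IBA or LT library or ET replicate 3 (edgeR adjusted p at most 0.013), without ET (-1.14, edgeR adjusted p = 0.0014), and without ET and with season as a covariate (-1.01, edgeR adjusted p = 0.021; with ET kept -1.05, edgeR adjusted p = 0.013). The SA to IBA log2 fold change of -1.34 missed the threshold (edgeR adjusted p = 0.0027). In that pair edgeR called 0.0158% of all units. DESeq2 called Alas1 there (DESeq2 adjusted p = 4.3e-10), and 3.5% of all units.

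Hemopexin, the plasma protein that binds free heme, is encoded by Hpx. Its merged unit with Trim3 and Apbb1, on Itri3 from 56151907 to 56223031, held 546, 1059 and 616 CPM in SA, 597, 798 and 649.8 in IBA, 828, 761 and 1356 in Ent, 683, 433 and 530.0 in ET and 505 and 362 in LT. As for Cp, SA replicate 2 and Ent replicate 3 were the highest libraries, and Cp was the single-gene unit with the pattern most like it, named after its values were seen (Pearson r = 0.87 of log2 CPM over 14 libraries). The unit was not called among the 5 states (edgeR adjusted p = 0.043).

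Counts by pair of states show where the calls fell among the 6 members with own units. From SA to IBA 0 of 6 were called by edgeR, and at an adjusted p of 0.05 2 of 6 were, against 5.22% of all units. An unadjusted p of 0.05 or less was reached by 2 of 6, against 22% of all units, and DESeq2 called 2 of 6 (3.5% of all units) and limma-voom 0 (0.0158%). From IBA to Ent 0 of 6 were called by edgeR, against 0.0316% of all units, and 4 of 6 against 16.1% at 0.05. There 5 of 6 had an unadjusted p of 0.05 or less, against 32.5% of all units, and DESeq2 called 1 of 6 (7.07% of all units) and limma-voom 0 (0.0158%). From Ent to ET 0 of 6 were called by edgeR against 2.21%, and 2 of 6 against 28.8% at 0.05. An unadjusted p of 0.05 or less was reached there by 2 of 6, a share below the 40.5% of all units, and DESeq2 called 1 of 6 (14.8% of all units) and limma-voom 0 (2.13%). Of the merged units, that of Hamp was the 1 called there by edgeR. Within torpor, from ET to LT, edgeR called 0 of 6 members and 0% of all units, and 0 of 6 and 0.269% at 0.05. In that pair 0 members had an unadjusted p of 0.05 or less (8.7% of all units), and DESeq2 (0.585% of all units) and limma-voom (0%) called 0 of 6.

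Calls from IBA and from SA to LT were more numerous than in these pairs, among the members and over the whole table. From IBA to LT 2 of 6 were called (Tf and Alas1) against 17.4% of all units, and 5 of 6 against 49.8% at 0.05. From SA to LT 2 of 6 were called (Alas1 and Ireb2) against 15.7%, and 5 of 6 against 49.2% at 0.05. DESeq2 called 4 of 6 from IBA to LT, where it called 31.9% of all units, 2 of 6 from SA to LT (31.4% of all units) and 5 of 6 among the 5 states (50% of all units). The comparisons that end in LT share its 2 libraries, and without LT replicate 1 or LT replicate 3 the calls from IBA to LT fell to 3.83 and 6.63% of all units and those from SA to LT to 3.13 and 4.63%. The median log2 fold change of the 6 members was -1.08 from IBA to LT, beside -0.05 over all units, and -0.63 from SA to LT, beside -0.04. The median absolute log2 fold change was 1.16 and 0.84 for the members, beside 0.58 and 0.56 over all units. Cp, at -1.33 from IBA to LT (SE 0.83), was not called (edgeR adjusted p = 0.2). The members were chosen with earlier results of these data known. In both pairs 4 members had a negative log2 fold change and 2, Fth1 (1.16 from IBA to LT and 0.92 from SA to LT) and Ireb2 (0.62 and 0.71), a positive one.

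Other genes of iron and heme handling were taken from 6 lists. Of 105 such genes, 36 had a unit of their own, 19 lay only in merged units and 50 had no unit; 12 of the 36 (33.3%) were called among the 5 states, against 25.5% of all units. From IBA to LT 6 of the 36 were called, 3 higher and 3 lower in LT (16.7%; median log2 fold change -0.32), and from SA to LT 7 were, 3 higher and 4 lower (19.4%), with a median of -0.24; the shares over all units are 17.4 and 15.7% in these pairs, so that those of the lists lie near them. The list medians from IBA to LT ran from -0.43 for iron uptake, storage and export to 0.30 for heme synthesis. Of the 4 heme synthesis genes with own units, 3 were called from IBA to LT. Cpox, which oxidizes coproporphyrinogen, was at 83.7 ± 25.7 CPM in IBA and 15.9 ± 1.61 in LT (SD) and was lower in LT (log2 fold change -2.39, SE 0.30, edgeR adjusted p = 5.7e-05). Slc25a38, the mitochondrial glycine carrier for heme synthesis, was at 6.84 ± 0.559 and 31.6 ± 3.64 CPM and was higher in LT (log2 fold change 2.21, SE 0.25, edgeR adjusted p = 3.1e-05), as was Fech, which inserts iron into protoporphyrin (log2 fold change 1.02, SE 0.15, edgeR adjusted p = 0.00016). Among the called units of heme synthesis, Alas1 and Cpox were lower, and Slc25a38 and Fech higher, in LT than in IBA. Uros, the remaining gene of that list with its own unit, was not called in this pair. Iscu, the scaffold on which iron-sulfur clusters are built, was at 36.1 ± 7.33 CPM in IBA and 155 ± 21.2 in LT, the 1 called gene of 7 with own units in its list (log2 fold change 2.10, SE 0.24, edgeR adjusted p = 3.9e-05). Of these 4 IBA to LT calls, those of Slc25a38 and Iscu held when each library was left out in turn, that of Cpox was lost on leaving out LT replicate 1 or LT replicate 3 and that of Fech on leaving out either of these, IBA replicate 2 or IBA replicate 3. Without ET and with season as a covariate all 4 kept their direction and missed the threshold: the log2 fold change was -2.59 for Cpox (edgeR adjusted p = 0.0012), 1.96 for Slc25a38 (edgeR adjusted p = 0.0037), 1.18 for Fech (edgeR adjusted p = 0.0026) and 1.88 for Iscu (edgeR adjusted p = 0.0011). With season as a covariate and ET kept, Cpox was called (edgeR adjusted p = 0.00063) and Slc25a38, Fech and Iscu were not (edgeR adjusted p = 0.0016, 0.0018 and 0.0018). Without ET and with no season term all 4 were called. With only IBA and LT fitted, Fech missed the threshold (edgeR adjusted p = 0.0011). The upstream neighbours of Slc25a38, Fech and Iscu were not examined here. Whether reads running on from an upstream gene add to their higher levels in LT was not tested. From Ent to ET, Slc25a38 was the 1 called gene of the 36, a share of 2.78% near the 2.21% of all units (log2 fold change 1.55, SE 0.22, edgeR adjusted p = 7e-04). The call was lost on leaving out any single IBA, Ent, ET or LT library (edgeR adjusted p at most 0.0043). Without Ent replicate 1 or ET replicate 2 no unit of the 6324 was called. Of the 23 alternatives for this call, 14 lost it, the 11 with a library left out included.

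Hepcidin is induced by bone morphogenetic proteins and by interleukin 6, and 4 of 9 receptor and signalling genes with own units were called among the 5 states, where 25.5% of all units were. The receptors Bmpr2 (log2 fold change -1.69, SE 0.29, edgeR adjusted p = 0.00044) and Acvr1 (log2 fold change -1.42, SE 0.26, edgeR adjusted p = 0.00073) were lower in LT than in IBA, and Acvr2a was higher in LT than in SA (log2 fold change 0.74, SE 0.14, edgeR adjusted p = 8e-04). The receptor gene Il6r, called among the 5 states, was at 300.0 ± 23.7 CPM in SA, 211 ± 14.9 in IBA, 193 ± 17.3 in Ent, 101 ± 36.4 in ET and 163 ± 3.31 in LT (SD). None of the 6 pairs tested was called by edgeR in the main fit, and SA was not tested against ET. Of the alternatives, 2 of 23 from Ent to ET and 3 of 26 from SA to LT passed, the looser threshold included. From SA to LT it was called in the fit without ET (-0.85, edgeR adjusted p = 0.00063). Of 9 genes of iron uptake, storage and export, 2 were called among the 5 states, against 25.5% of all units: SLC39A14, a transporter of iron and other metals, was lower in LT than in SA (log2 fold change -1.88, SE 0.31, edgeR adjusted p = 0.00043), and Ncoa4, the receptor that delivers ferritin to lysosomes, was at 108 ± 13.6 CPM in SA, 81.6 ± 5.59 in IBA, 52.3 ± 7.24 in Ent, 54.1 ± 11.9 in ET and 73.1 ± 10.2 in LT and was called in none of the 6 pairs tested, to which SA against Ent does not belong. Egln3, an oxygen-sensing prolyl hydroxylase (log2 fold change -1.40, SE 0.24, edgeR adjusted p = 0.00049), and Slc46a1, a carrier of folate and heme (log2 fold change -2.14, SE 0.28, edgeR adjusted p = 9.9e-05), were lower in LT than in SA. Between pairs of states, leaving out 1 library ended the call of Bmpr2 for IBA replicate 1 or IBA replicate 3 or either LT library (edgeR adjusted p at most 0.0095), of Acvr1 for SA replicate 3, any IBA library, Ent replicate 3, ET replicate 2 or ET replicate 3 or either LT library (edgeR adjusted p at most 0.012), of Acvr2a for any SA library, any IBA library, Ent replicate 3, any ET library or either LT library (edgeR adjusted p at most 0.013), of SLC39A14 for SA replicate 1 or either LT library (edgeR adjusted p at most 0.0088), of Egln3 for SA replicate 2 or SA replicate 3, IBA replicate 3 or either LT library (edgeR adjusted p at most 0.0092) and of Slc46a1 for LT replicate 1 (edgeR adjusted p at most 0.0024). Without ET and with season as a covariate all 6 of these calls were lost, with log2 fold changes of -1.58, -1.52, 0.79, -1.86, -1.43 and -2.11 and edgeR adjusted p of 0.0091, 0.011, 0.007, 0.0036, 0.0036 and 0.002 in that order. With season as a covariate and ET kept, Slc46a1 was called (edgeR adjusted p = 0.00067) and the others were not, with edgeR adjusted p of 0.0067, 0.0048, 0.0043, 0.0017 and 0.002. Without ET and with no season term those of Acvr1 and Acvr2a were lost (edgeR adjusted p = 0.0019 and 0.0017) and the other 4 were called. Among the 5 states, the calls of Bmpr2, Acvr1, Acvr2a, Il6r, Ncoa4, Egln3 and Fech were lost on leaving out any 1 of 9, 11, 11, 11, 13, 2 and 5 of the 14 libraries, with edgeR adjusted p of at most 0.003, 0.0035, 0.0027, 0.0027, 0.0035, 0.0011 and 0.0022.

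**Figure D3:**
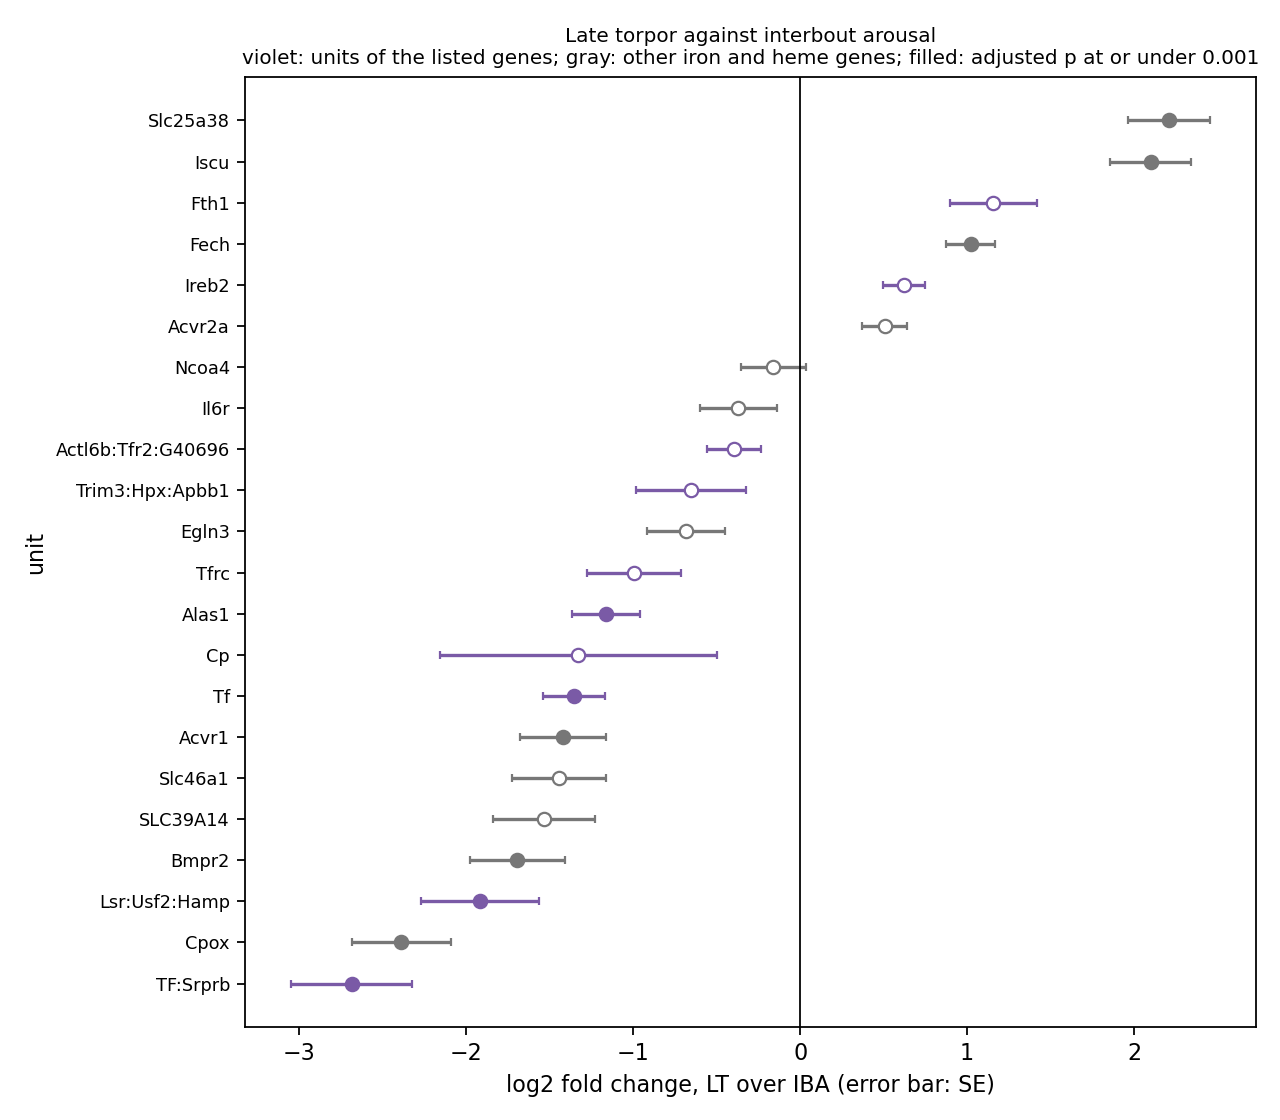
Log2 fold change (x axis, LT over IBA; points, with SE as error bars) of the units of the listed genes (violet) and of the 12 other iron and heme genes called among the 5 states (gray); filled points passed an edgeR adjusted p of 0.001 between IBA and LT. TF:Srprb is the lowest at -2.68 and Slc25a38 the highest at 2.21.

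Patterns most like the called units were found among single-gene units by Pearson r of log2 CPM over the 14 libraries, as a measure of likeness only; the libraries share states and seasons. For Alas1 they were Ccnd3 (Pearson r = 0.95) and Zfyve1 (r = 0.95), for Tf Vti1a (Pearson r = 0.96) and CYP2C8 (r = 0.94), for TF:Srprb UGT2A1 (Pearson r = 0.98) and Zbtb38 (r = 0.97), for Ireb2 Cnot7 (Pearson r = 0.98) and Usp47 (r = 0.98) and for the unit of Hamp G5834 (Pearson r = 0.96) and Pck1 (r = 0.95). Pck1 encodes an enzyme that starts gluconeogenesis.

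Marker genes of liver cell types were summed in each library. Of 13 hepatocyte markers 11 had a unit, 5 of them their own, with Cps1 the most abundant in SA and Apob in the other 4 states, and their summed level was 23193, 27375 and 19257 in SA, 25453, 19214 and 20693 in IBA, 16734, 13869 and 14087 in Ent, 11584, 6800.5 and 9201 in ET and 12223 and 8031 in LT CPM. It was lower in every Ent, ET and LT library than in every SA and IBA library, as the transferrin units and Alas1 were in ET and LT, and its part in their differences was not tested. The markers did not all move alike: the mean level of 9 of the 11 units was lower in LT than in SA, as for Cps1 (7452 CPM in SA and 1046 in LT), while that of Apob (3228 and 3781 CPM) and of the merged unit of F2 and Znf408 (585 and 676 CPM) was not. Of 9 endothelial markers 5 had a unit, Stab1 the most abundant in LT and Kdr in the other 4 states, with a summed level of 238, 256 and 291 in SA, 257, 257 and 288 in IBA, 287, 249 and 262 in Ent, 237, 152 and 204 in ET and 155 and 172 in LT CPM. Of 12 macrophage markers only Cd68 had a unit, merged with other genes (419.9, 484 and 607 in SA, 374, 424 and 451 in IBA, 521, 558 and 342 in Ent, 523, 236 and 455 in ET and 489 and 509 in LT CPM), and of 6 cholangiocyte markers only Sox9 (41.0, 30.0 and 25.9 in SA, 16.5, 36.0 and 19.3 in IBA, 46.1, 29.8 and 33.9 in Ent, 18.1, 13.4 and 10.9 in ET and 10.1 and 7.07 in LT CPM). None of the 8 stellate cell and fibroblast markers or of the 12 erythroid markers had a unit, so those cells could not be followed here.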

How the data were processed

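The authors trimmed the GRO-seq reads with cutadapt, aligned them to the HiC_Itri_2 genome with BWA, redefined gene bodies from the reads with FStitch, removed the start of each and deposited raw counts of uniquely aligned reads per unit, made with featureCounts. From the deposited counts of 6324 units (4705 with 1 gene, 1619 merged) in 14 libraries, edgeR 4.0.16 in R 4.3.3 was used with TMM and 1 coefficient per state, with no filter. DESeq2 1.42.0 and limma 3.58.1 were alternatives, beside other scalings, filters, fits and each library left out in turn. RPKM used the unit lengths in the file, and log2 CPM a prior count of 2. Named genes were the members, list genes called among the 5 states, the 2 most similar single-gene units of each called member, upstream units within 20 kb and markers. Members and lists were chosen with earlier results of these data known. Collection seasons came from the study's metadata. Fits were tested on simulated data, of which no result is given here. Promoter and protein sequences were not used here.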

Additional observations from a re-analysis of the deposited data

How the results depend on the processing

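Fold changes of the members were carried through the alternatives where the edgeR adjusted p was 0.05 or less, a limit set after seeing the data: 27 differences and 678 alternative values, all 678 of them in the direction reported. In 79 of them a called difference no longer passed, and in 31 an uncalled one passed, the looser threshold included. Counts of the 6 members with own units moved as follows. DESeq2 called 5 among the 5 states (3 by edgeR), 2 between SA and IBA, 1 between IBA and Ent, 1 between Ent and ET (each 0 by edgeR) and 4 between IBA and LT (2 by edgeR); over all units it called 50% among the 5 states and 31.9% between IBA and LT, against 25.5 and 17.4% by edgeR. At an adjusted p of 0.05 the counts were 5, 2, 4, 2 and 5 in the same order, and 5 between SA and LT. With the replicate block 1 was called between IBA and LT and 1 between SA and LT, against 2 each, and 2 among the 5 states, against 3. Over all units it called 12.4, 10.8 and 18.8% in that order, against 17.4, 15.7 and 25.5% without it. The block ended the calls of Ireb2 (edgeR adjusted p = 0.0011 among the states and 0.0023 between SA and LT), of Alas1 between IBA and LT (0.0011) and of the unit of Hamp between Ent and ET (0.002) and IBA and LT (0.0015). Same-numbered libraries deviated together (correlation over 0.1) in 6 of 26 pairs and 3 of 14 libraries correlated best with their own number, so the numbers were not taken as pairs. Without ET, chosen after seeing the data, 1 was called between IBA and LT and 1 between SA and LT; with season as a covariate as well the counts were 0 and 1, and with season and ET kept, likewise chosen after seeing the data, 0 and 1. With only SA and LT fitted 0 members and 0 of the 6324 units were called, as in every pair fitted alone but IBA and LT, so these fits say nothing of the members. Leaving out 1 SA, IBA, Ent or ET library gave 1 to 3 between IBA and LT and 1 to 2 between SA and LT. Over all units these fits called 9.46 to 19.3% and 10.1 to 15.7%, against 17.4 and 15.7% in the main fit. The IBA to LT share was 9.46 to 9.69% without an IBA library, where the Alas1 call was lost. Losses without an LT library are given above, and such fits assume that the 1 LT library left varies like the other groups. The cause of these moves was not tested. Scaling to uniquely mapped reads, taken for each library as the study's percent uniquely mapped times its trimmed reads because the listed count of IBA replicate 1 repeats its trimmed reads, shifted the median log2 fold change of all units by 0.15 between IBA and Ent, 0.12 between Ent and ET, 0.18 between IBA and LT and 0.19 between SA and LT; under it Alas1 between IBA and LT was -0.97 and no longer called, nor was the unit of Hamp (-1.74), with Bmpr2, Acvr1 (both between IBA and LT) and Egln3 (between SA and LT) also no longer called; Fth1 (1.34) and Ireb2 (0.80) passed under it between IBA and LT, which they did not with season as a covariate (0.80 and 0.71 without ET, 0.76 and 0.67 with it). LT rests on 2 libraries, which limits every comparison with it.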
